A study of Mus musculus with 6 samples.

Results

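Atrial heart muscle was followed here through 8 genes, Myl1, Myl4, Myl7, Sln, Fgf12, Dkk3, Stard10 and Bmp10, of 19938 genes that the arrays name. The genes were selected on a measured value, a high level on 1 array, the Id control heart titled Tie2Cre+Id1-/-Id3+/-, so their levels on that array are a description and support nothing. Each was read by 1 probe set annotated to that symbol alone, 8 probe sets in all. The study measured gene expression in 6 mouse hearts, each on 1 Affymetrix array, at 6 months (postnatal day 180), to follow the loss of the helix-loop-helix inhibitors Id1 and Id3. An Id cKO heart treated with recombinant mouse IGFBP3, a binding protein of insulin-like growth factors found outside cells, was set against an untreated Id cKO heart (the incubated pair). The Id cKO array carried Tie2Cre+Id1F/-Id3-/-, where F is read as a floxed allele. For the treated and untreated hearts the labels give Id cKO and no alleles. Id control replicate 2, titled Tie2Cre+Id1-/-Id3+/-, had Tie2Cre, no Id1 and 1 Id3 allele. Id control replicate 1, titled Id1F/+Id3-/-, had no Cre named, 1 floxed Id1 allele and no Id3. The WT heart had no allele named. Tie2Cre acts in endothelial and blood cells, so that heart muscle itself keeps the floxed allele intact. The sources used here do not state how many animals gave each sample or which chambers of the heart were taken.

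The atria and ventricles of the mouse heart are built from related but separate sets of muscle genes. Atrial muscle cells use their own myosin light chains, Myl4 (the essential or alkali chain) and Myl7 (the regulatory chain), where ventricular cells use Myl3 and Myl2. Atrial cells also make sarcolipin (Sln), a small membrane protein that restrains the calcium pump SERCA, a role that phospholamban (Pln) has in the ventricle. In bulk tissue, fewer cells of a type and less RNA per cell cannot be told apart.

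The deposited levels are on the log2 scale, so that a difference of 1 is 2-fold. The arrays came in differently scaled sets. The array medians lay at 4.45 and 4.51 on the treated and untreated arrays, and between 5.73 and 5.83 on the other 4. Levels were therefore compared across the sets only after quantile normalization of the 6 arrays, and within a set as deposited. The targeted genes were read first. They, and Xist below, are given as deposited, so the treated and untreated values are not on the scale of the other 4 arrays. Id1 was at 5.70 in the treated and in the untreated heart, 6.48 on the Id cKO array, 6.41 and 8.10 on Id control 2 and 1, and 8.14 on WT. Id3 was at 4.13 and 3.86 on the treated and untreated arrays, 4.69 on the Id cKO array, 7.32 and 5.02 on Id control 2 and 1, and 7.18 on WT. Id1 was thus low where the titles give 1 floxed and 1 lost or no Id1 allele, and Id3 where they give none, but Id3 on Id control 2, titled with 1 Id3 allele, was not below WT. Where the probes lie relative to the deletions was not analysed here. The hearts differed in their sex pattern. Xist, which female cells transcribe from the silenced X chromosome, was at 3.0 and 3.08 on the treated and untreated arrays and at 8.62 on the Id cKO array. It was at 8.15 and 8.61 on Id control 2 and 1, and at 4.03 on the WT array, so that WT and the incubated pair had the male pattern. Label date codes also differed, with Id cKO, Id control 2 and WT sharing 1 code, Id control 1 having another and the incubated pair the last. Id control 2 stood apart, with 30 of 10769 genes at least 2-fold above every other array after quantile normalization, against 2 on Id control 1 and 2 on WT. The untreated Id cKO array had 28 such genes.

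The atrial myosin light chains showed the widest gap between hearts. Myl7 was at a quantile-normalized log2 level of 5.56 on the treated, 4.88 on the untreated and 4.93 on the Id cKO array, at 11.90 on Id control 2, at 4.88 on Id control 1 and at 4.76 on WT. Myl4 was at 6.66 on the treated, 6.05 on the untreated and 6.40 on the Id cKO array, at 12.67 on Id control 2, at 6.44 on Id control 1 and at 6.29 on WT, on the same scale. Both genes were high on Id control 2 alone, 81.0-fold (Myl7) and 64.4-fold (Myl4) above the next array. Over the other 5 arrays Myl7 spanned 0.79 and Myl4 0.61 on the log2 scale, with the treated heart on top for both. Each of those 5 arrays is the only one with its label. The Id cKO and untreated arrays, both labelled Id cKO, lie in different array sets. Neighbours in that order therefore cannot be told apart by a replicate spread.

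Myl1, the alkali light chain of fast skeletal muscle fibres, was arranged differently. Its quantile-normalized log2 level was 3.82 on the treated, 3.42 on the untreated and 4.35 on the Id cKO array, 7.06 on Id control 2, 6.30 on Id control 1 and 6.04 on WT. Id control 2 was the highest array here too, but by 0.75, which is 1.68-fold. The 3 arrays of the Id cKO genotype lay below all the others. Myl4 and Myl7 had no such gap, since the Id cKO arrays lay on either side of Id control 1 or WT.

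The promoter windows of these light chains are shown because Id proteins act on E proteins, which bind the E-box CANNTG, and because Myl4 and Myl7 were high on the same array. Stard10 is added as the other gene that was low on the Id cKO array. The windows are RefSeq's for GRCm38.p6, from 250 bases before to 50 after the annotated start, read 5′ to 3′ on the gene's strand, with each E-box in capitals.
Myl7, chr11:5898733-5899032, reverse strand: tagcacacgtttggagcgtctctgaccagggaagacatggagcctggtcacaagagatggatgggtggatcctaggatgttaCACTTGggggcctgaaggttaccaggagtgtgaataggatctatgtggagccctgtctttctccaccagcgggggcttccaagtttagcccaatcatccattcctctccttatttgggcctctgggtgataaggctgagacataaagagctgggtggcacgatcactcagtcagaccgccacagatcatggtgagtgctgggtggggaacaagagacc
Myl4, chr11:104550413-104550712, forward strand: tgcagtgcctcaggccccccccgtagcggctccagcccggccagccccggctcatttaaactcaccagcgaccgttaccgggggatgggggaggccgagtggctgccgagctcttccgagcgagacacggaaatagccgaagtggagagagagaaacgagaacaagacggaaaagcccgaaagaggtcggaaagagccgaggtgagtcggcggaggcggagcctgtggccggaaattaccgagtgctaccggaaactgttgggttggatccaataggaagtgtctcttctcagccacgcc
Myl1, chr1:66945007-66945306, reverse strand: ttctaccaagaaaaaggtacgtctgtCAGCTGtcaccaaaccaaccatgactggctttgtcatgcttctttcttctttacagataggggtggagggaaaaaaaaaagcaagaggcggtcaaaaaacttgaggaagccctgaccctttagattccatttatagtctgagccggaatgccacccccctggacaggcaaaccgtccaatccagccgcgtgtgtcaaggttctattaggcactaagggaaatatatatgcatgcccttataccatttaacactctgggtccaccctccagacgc
Stard10, chr7:101316836-101317135, forward strand: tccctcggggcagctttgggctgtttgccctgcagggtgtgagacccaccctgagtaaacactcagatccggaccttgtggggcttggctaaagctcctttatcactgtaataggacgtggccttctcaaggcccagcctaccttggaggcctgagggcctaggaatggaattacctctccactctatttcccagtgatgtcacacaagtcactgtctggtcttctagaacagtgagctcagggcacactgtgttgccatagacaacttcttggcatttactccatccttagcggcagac
The E-box motif reads the same on both strands. Myl7 held 1 E-box, CACTTG, with its first base at position -168 from the start. Myl1 held 1, CAGCTG, at position -224, and also a TATAAA motif on the opposite strand, which reads tttata as printed. Myl4 and Stard10 held no E-box in these letters. Of 32851 promoter windows of the same length in the table, 72.3% held CANNTG, 16.3% held CAGCTG, which is contained in CANNTG, 13.6% held TATAAA and 11.2% held the GATA motif AGATAA, each counted on both strands. Of the 8 genes, 6 had a window in the table. Fgf12 had several, and the window of Bmp10 held AGATAA in 2 places and no E-box. A match describes the letters and is no evidence of binding.

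**Figure D1:**
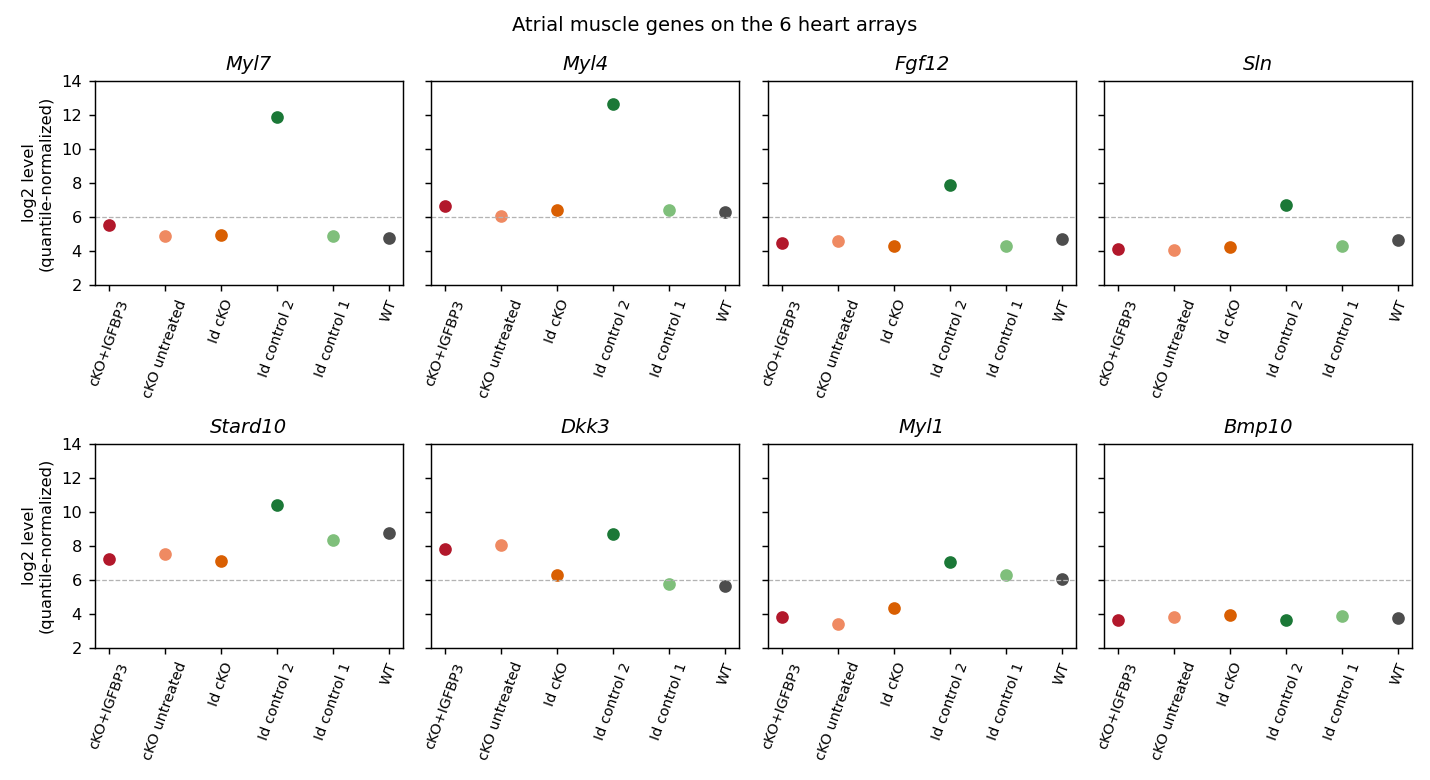
Quantile-normalized log2 level (vertical axis) of each of the 8 genes on the 6 arrays (horizontal axis), 1 point per array, with a dashed line at 6. Myl7, Myl4, Fgf12 and Sln are high on Id control 2 alone. Myl1, Stard10 and, by a small margin under 6, Sln are lowest on the 3 Id cKO arrays. Bmp10 lies between 3.64 and 3.90 throughout.

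Sln and Fgf12 followed the light chains on a smaller scale. Sln was at a quantile-normalized log2 level of 4.10 on the treated, 4.06 on the untreated and 4.25 on the Id cKO array, 6.72 on Id control 2, 4.31 on Id control 1 and 4.66 on WT. It was thus 4.15-fold above the next array on Id control 2 and within 0.60 on the other 5. The treated, untreated and Id cKO arrays were the lowest for Sln, at most 4.25 against 4.31 on Id control 1, all under 6. Fgf12 encodes a fibroblast growth factor homologous factor, a protein that stays in the cell and modulates sodium channels. Its level on this scale was 4.5 on the treated, 4.58 on the untreated and 4.31 on the Id cKO array, 7.89 on Id control 2, 4.29 on Id control 1 and 4.69 on WT. Id control 2 was 9.20-fold above the next array, and the others lay within 0.40.

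Stard10, a lipid transfer protein of the START domain family, was present on every array. Its quantile-normalized log2 level was 7.24 on the treated, 7.49 on the untreated and 7.13 on the Id cKO array, 10.42 on Id control 2, 8.34 on Id control 1 and 8.73 on WT. Id control 2 was 3.24-fold above WT, the next array, and the 3 Id cKO arrays were the lowest. Dkk3, a secreted glycoprotein of the dickkopf family, was at 7.79 on the treated, 8.05 on the untreated and 6.30 on the Id cKO array, 8.72 on Id control 2, 5.74 on Id control 1 and 5.63 on WT. Dkk3 was therefore nearly as high in the incubated pair as on Id control 2, which exceeded the untreated heart by 0.67 (1.59-fold).

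Bmp10 went against the choice. Bmp10 is a bone morphogenetic protein that adult mice make chiefly in the right atrium. Its quantile-normalized log2 level was 3.66 on the treated, 3.81 on the untreated and 3.90 on the Id cKO array, 3.64 on Id control 2, 3.88 on Id control 1 and 3.75 on WT. Id control 2 was the lowest of the 6 arrays, and all were within 0.25 of it. Bmp10 stayed under 6 on every array and so passed no filter. Of the 8 genes, 7 had their highest level on Id control 2, and 5 (Myl4, Myl7, Sln, Fgf12 and Stard10) were at least 2-fold above every other array there, a criterion that 0.279% of the genes met. Nothing is read from that count, because the array chose the genes.

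Against WT, as deposited, the same 7 genes were at least 2-fold higher on Id control 2, where 1.55% of compared genes were. Id control 2 chose the genes, so nothing is read from this count or from the counts below that include that array. Myl7, Sln and Fgf12 were compared only because they reached 6 on it. Myl1 was the closest to the limit, at 7.50 on Id control 2 and 6.46 on WT, a difference of 1.03. The wide spread of the Id control pair sets what an average over it can show. The deposited Id control mean was 8.79 ± 4.92 for Myl7, 9.90 ± 4.34 for Myl4 and 7.10 ± 0.56 for Myl1 (SD, n = 2). Against that mean, 4 genes (Myl4, Myl7, Fgf12 and Dkk3) were at least 2-fold higher than in WT, beside 0.535% of genes. Without Id control 1 these were 7 genes, and without Id control 2 there were 0. Likewise 5 genes (Myl1, Myl4, Myl7, Fgf12 and Stard10) were at least 2-fold lower in Id cKO than in the Id control mean, beside 0.964% of genes. Without Id control 2, Myl1 and Stard10 were left.

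The comparison of Id cKO with WT asks what the loss of Id1 and Id3 does, and it uses no array that chose the genes. Myl1 and Stard10 were lower in the Id cKO heart, and the atrial light chains were close to WT. Myl1 was at 4.80 in Id cKO and 6.46 in WT as deposited, a difference of -1.66. The Id cKO value is below that array's median of 5.77, so the size is poorly determined, and with 6 in its place the difference is -0.46, which is under 2-fold. Stard10 was at 7.53 in Id cKO and 9.08 in WT, a difference of -1.55 (2.94-fold). Dkk3 was at 6.72 in Id cKO and 6.10 in WT (0.62), and Myl4 at 6.81 in Id cKO and 6.69 in WT (0.12).

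Genes were compared where the higher array reached 6, which these 4 of the 8 did. Of them 2 were at least 2-fold lower and 0 higher in Id cKO, where 0.967% of 11478 genes were lower and 2.2% higher. Myl7 (0.10), Sln (-0.48), Fgf12 (-0.43) and Bmp10 (0.12) were under 6 on both arrays. Each side is 1 heart, so these differences have no replicate check. The Id cKO heart had the female Xist pattern where the WT heart had the male one, under the same date code. The Id cKO title names Tie2Cre and the WT title does not, so Cre and the loss of Id1 and Id3 cannot be told apart.

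Set against Id control 1, which shares the female pattern but not the date code, the same pair was lower. Myl1 was at 4.80 in Id cKO and 6.71 in Id control 1, a difference of -1.91, or -0.71 with 6 in place of the Id cKO value. Stard10 was at 7.53 in Id cKO and 8.77 in Id control 1, a difference of -1.24 (2.36-fold). Dkk3 was 0.58 higher in Id cKO and Myl4 0.02 lower. Again 4 genes were compared, with 2 at least 2-fold lower beside 1.0% of 11303 genes and 0 higher beside 1.53%. Both comparisons share the Id cKO array, so the second is no repeat of the first. Id control 1 has no Cre named either, so the presence of Tie2Cre differs here too.

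Id control 1, which lacks Id3 and has no Cre named, was near WT. Of the 4 genes compared between Id control 1 and WT, 0 were 2-fold apart, where 0.211% of 11376 genes were at least 2-fold higher and 0.29% lower. Myl1 was at 6.71 in Id control 1 and 6.46 in WT (0.25), and Stard10 at 8.77 in Id control 1 and 9.08 in WT (-0.32). Myl4 differed by 0.14 and Dkk3 by 0.04. Both Myl1 and Stard10 were closer to WT in this heart than in the Id cKO heart.

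**Figure D2:**
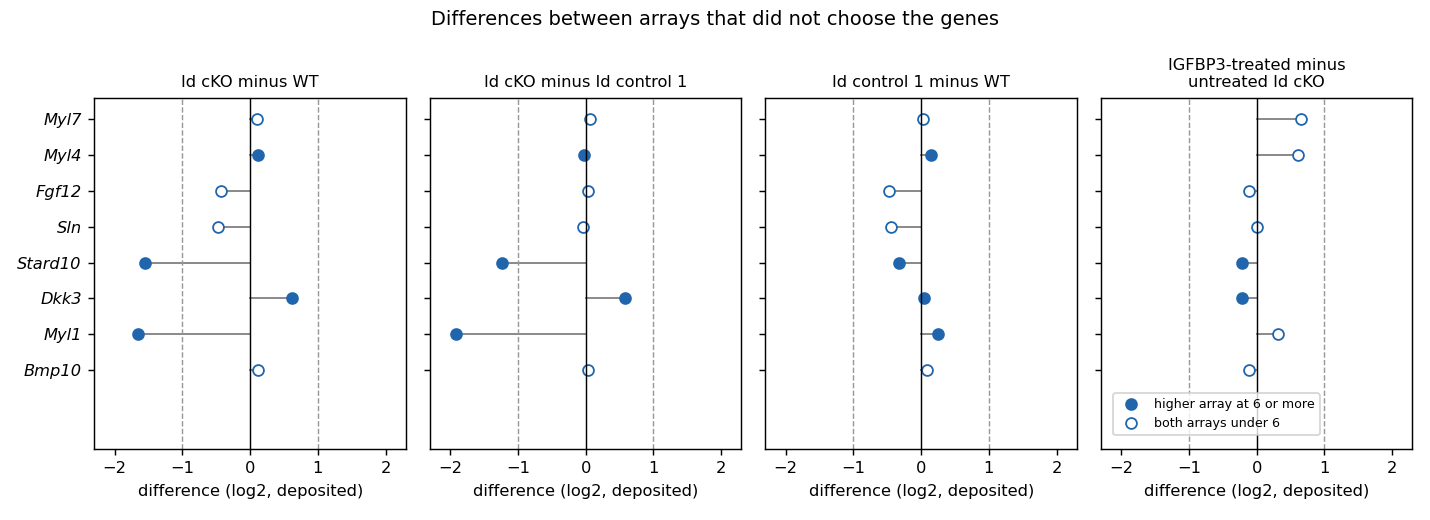
Difference of deposited log2 levels (horizontal axis) for each of the 8 genes (vertical axis) in 4 comparisons of 1 array with 1 array, with dashed lines at 2-fold and open points where both arrays were under 6. Myl1 and Stard10 pass the 2-fold lines on the low side when Id cKO is set against WT (-1.66 and -1.55) and against Id control 1 (-1.91 and -1.24), and no other point reaches a line.

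The incubated pair gave another look at the Id cKO genotype, though its labels give no alleles. Against Id control 1 and WT, the treated and untreated arrays also differ in array set, date code and incubation. Genotype cannot be told apart from these there. After quantile normalization, Myl1 lay between 3.42 and 4.35 on the 3 arrays of that genotype (treated, untreated and Id cKO), against 6.30 on Id control 1 and 6.04 on WT. It was at least 2-fold below both on every one, as 0.29% of 10674 genes were, with all 3 values under 6. Stard10 lay between 7.13 and 7.49 on the 3 arrays, against 8.34 and 8.73, below both on every one, as 22.1% of genes were, but not by 2-fold. Dkk3 lay between 6.30 and 8.05, against 5.74 and 5.63, above both on every one, as 18.2% of genes were. At least 2-fold above were 0.693% of genes and 0 of the 4 compared, which were Myl1, Myl4, Dkk3 and Stard10. Myl4 (6.05 to 6.66, against 6.44 and 6.29) overlapped those 2 arrays. The untreated heart and the Id cKO heart are both labelled Id cKO, and neither is labelled as IGFBP3-treated. Between them, Dkk3 was 1.74 higher in the untreated heart of the pair (3.35-fold). Of 10239 genes 4.97% were at least 2-fold higher there and 3.44% lower. Of the 8 genes 3 were compared, with 1 higher and 0 lower. Myl1 was 0.93 lower there with both values under 6. The untreated heart belongs to the incubated pair and the Id cKO heart does not. Array set, date code, incubation, sex pattern and animal cannot be told apart in that difference.

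The comparison of the treated with the untreated Id cKO heart asks whether IGFBP3 alters the knockout heart. Of the 8 genes, 2 reached 6 and were compared, and 0 of these differed 2-fold. Of 7474 genes compared, 0.495% were higher and 0.803% lower. The medians of these arrays were low as deposited (4.45 and 4.51), so fewer genes reached 6. After quantile normalization 3 of the 8 genes were compared, Myl4 (6.66 treated, 6.05 untreated) among them, and 0 differed 2-fold. Of 10046 genes compared then, 47 were higher and 87 lower. As deposited, Dkk3 was at 7.01 in the treated and 7.23 in the untreated heart (-0.22), and Stard10 at 6.45 in the treated and 6.67 in the untreated heart (-0.21). These 2 genes reached 6 in this pair. Below it, Myl7 was at 4.68 in the treated and 4.02 in the untreated heart (0.66), and Myl4 at 5.86 in the treated and 5.25 in the untreated heart (0.61). Sln had exactly the same value, 3.20, on both arrays, as did 957 of the 21789 probe sets with 1 gene name. Myl1 (0.32), Fgf12 (-0.12) and Bmp10 (-0.12) were also under 6.

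A limma model of all 6 arrays with a mean for each of the 5 groups was used, and p-values were adjusted by Benjamini and Hochberg's method over all genes compared. At an adjusted p of 0.05 it called 0 of the 6 genes tested between Id cKO and Id control (0.0177% of all genes passed) and 0 of 4 between Id cKO and WT (0.0348%). It called 0 of 6 between Id control and WT (0.0%) and 0 of 2 between treated and untreated (0.0%). Sln and Bmp10 were under the limit of 6 in each of these and were not tested. At an unadjusted p under 0.05 the genes that passed numbered 1523 between Id cKO and Id control, 1509 between Id cKO and WT, 828 between Id control and WT, and 1716 between treated and untreated. Myl1 was among them between Id cKO and Id control (limma, unadjusted p = 0.00241) and between Id cKO and WT (limma, unadjusted p = 0.012), and no other of the genes tested was. The limma difference between Id cKO and WT was -1.66 ± 0.41 for Myl1 (SE, adjusted p = 0.251) and -1.55 ± 1.00 for Stard10 (SE, adjusted p = 0.584). Against the Id control mean it was -2.3 ± 0.36 for Myl1 (limma SE, adjusted p = 0.212). Only the Id control pair gives this fit its spread, 1 residual degree of freedom, and that pair is 1 heart each of different genotypes. The genes were chosen for their level on an array of that pair, so a p for any of them is no independent evidence. Myl7 and Fgf12 were among the 6 genes tested with the Id control mean only because Id control 2 raised that mean.

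A fit chosen after seeing the data left out Id control 2 and took the Id cKO and untreated arrays as 1 group after quantile normalization, so that the array which chose the genes entered neither the means nor the spread. It had still been among the 6 arrays whose levels set the normalization. There Myl1 was -2.16 ± 0.47 between Id cKO and WT (limma SE, adjusted p = 0.018), beside 0.643% of 10102 genes called, and over the other settings the adjusted p was 0.218 to 0.483. Against Id control 1 it was -2.42 ± 0.47 (limma SE, adjusted p = 0.00418), beside 0.585% of 10077 genes, and over the other settings, with both Id control arrays, 0.19 to 0.275. Stard10 was -1.42 ± 0.45 against WT (limma SE, adjusted p = 0.205) and Dkk3 1.54 ± 0.52 (limma SE, adjusted p = 0.264). Myl1 was lower on both of the arrays in that group, at 4.35 on the Id cKO and 3.42 on the untreated array. Both values are under 6, so the size of its difference is poorly determined. The spread in this fit, 1 residual degree of freedom, comes from the Id cKO and untreated hearts, which lie in different array sets.

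Other atrial genes were counted from a written list of 19, of which 18 were measured. On Id control 2, 14 of 16 compared lay above WT, as 57.3% of all genes did, and 7 by 2-fold or more, as 1.55% did. The list's median was 0.78, where the median of all genes was 0.05. These counts are a description, since the list was written with earlier results of these data known and Id control 2 chose the 8 genes. Mybphl, Sbk3 and Nr2f1 were compared only because they reached 6 on Id control 2. As deposited, Mybphl, a myosin-binding protein of the atria, was at 5.12 in Id cKO, 9.23 on Id control 2, 5.21 on Id control 1 and 5.22 in WT. Sbk3 was at 5.55 in Id cKO, 9.72 on Id control 2, 5.95 on Id control 1 and 5.78 in WT, and the related kinase gene Sbk2 at 5.49, 8.39, 6.37 and 6.27 on the same arrays. These 3 were high on Id control 2 alone, as Myl7 and Myl4 were. The others past 2-fold were Nppa, Pam (13.04 on Id control 2, 11.57 in WT), which encodes a peptide-processing enzyme, the connexin gene Gja5 (8.37 on Id control 2, 6.92 in WT) and the transcription factor gene Tbx5 (9.07 on Id control 2, 8.05 in WT).

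The atrial list was not uniform. Nppa, the gene of atrial natriuretic peptide, was at 14.03 in Id cKO, 13.71 on Id control 2, 11.30 on Id control 1 and 10.29 in WT, highest in Id cKO. The potassium channel gene Kcnj3 was at 7.03 in Id cKO, 9.28 on Id control 2, 8.99 on Id control 1 and 8.58 in WT, and so low in Id cKO, as Myl1 and Stard10 were. Kcna5 (6.63 on Id control 2, 7.44 in WT), Dhrs9 (4.02 on Id control 2, 4.73 in WT) and Rasd1 (6.75 on Id control 2, 6.81 in WT) were lower on Id control 2 than in WT. Kcnj5 (0.64 above WT on Id control 2), Kcnk3 (0.20), Nr2f1 (0.11), Nr2f2 (0.86), Cacna1d (0.20), Chrm2 (0.24) and Clu (0.46) were higher by less than 2-fold. Between Id cKO and WT, 1 of 13 compared was at least 2-fold higher (Nppa) and 1 lower (Kcnj3), with a list median of -0.28 beside 0.00 over all genes.

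Ventricular genes on Id control 2 stayed near WT. Of 12 genes 3 were above WT, as 57.3% of all genes were, and 0 were 2-fold apart, with a median of -0.09 beside 0.05 over all genes. The ventricular light chains Myl2 (13.60 in Id cKO, 13.57 on Id control 2 and 1, 13.64 in WT) and Myl3 (12.91 in Id cKO, 12.84 on Id control 2, 12.91 on Id control 1, 12.96 in WT) were close to equal, as was Pln (13.35 in Id cKO, 13.55 on Id control 2, 13.66 on Id control 1, 13.50 in WT). The transcription factor gene Irx1 (5.77 on Id control 2, 6.74 in WT) and Irx3 (7.83 on Id control 2, 8.44 in WT) were lower by 0.98 and 0.60. Irx4 (0.30), Fhl2 (0.34), Irx5 (-0.27), Prdm16 (-0.25), Hand1 (-0.13), Hey2 (-0.07) and Kcnip2 (-0.06) made up the rest, as differences from WT. Genes that both chambers use, such as Myh6 and Tnnt2, had a median difference of 0.06 over 12 genes, with 0 at 2-fold. Between Id cKO and WT, 11 of the 12 ventricular genes were lower, as 49.2% of all genes were, 0 by 2-fold, with a median of -0.15.

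**Figure D3:**
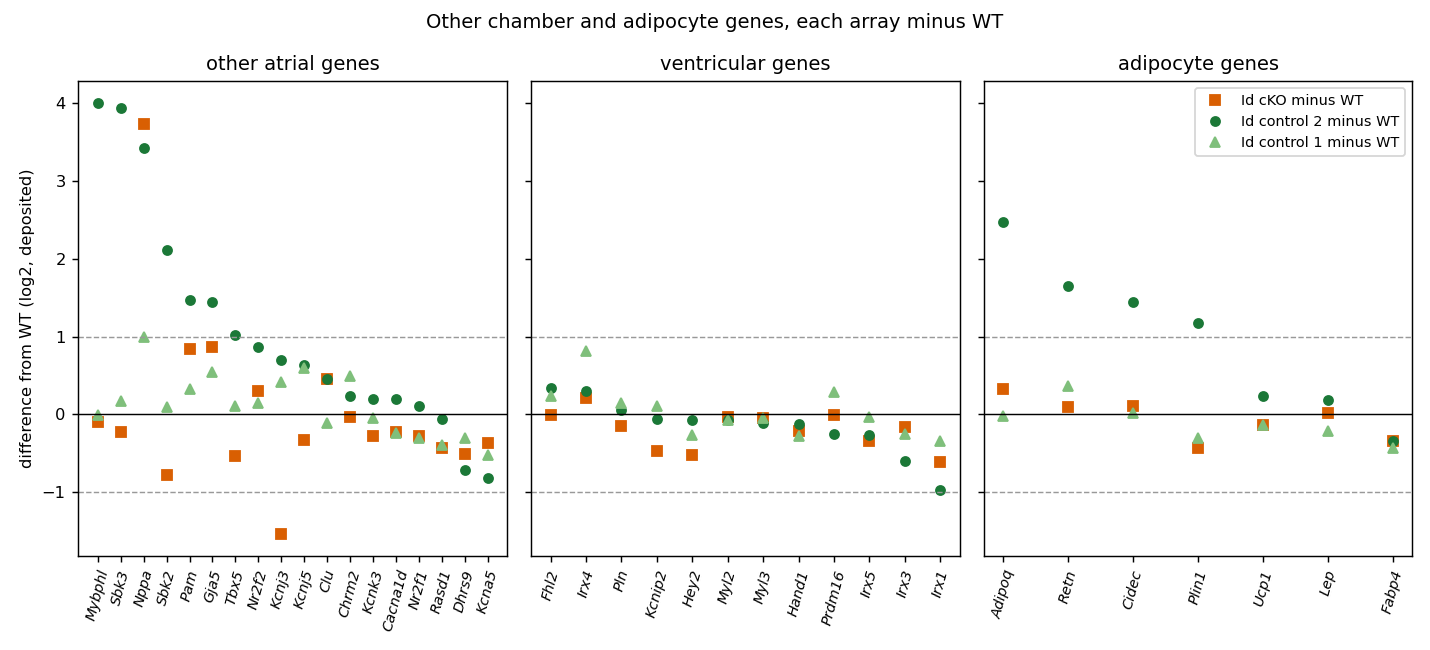
Deposited log2 level of Id cKO (squares), Id control 2 (circles) and Id control 1 (triangles) minus WT (vertical axis) for the other atrial, ventricular and adipocyte genes (horizontal axis), with dashed lines at 2-fold. Mybphl and Sbk3 stand about 4 log2 units above WT on Id control 2 alone, no ventricular gene passes a line, and 4 adipocyte genes do on Id control 2.

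Markers of other cell types were also high on Id control 2, where 22.8% of all 19938 genes had their highest level of the 4 arrays and 0.251% were at least 2-fold above the other 3. Of 7 adipocyte markers measured, 6 were highest on Id control 2 among the 4 arrays of its set and 4 by at least 2-fold, among them Adipoq (4.38 in Id cKO, 6.53 on Id control 2, 4.02 on Id control 1 and 4.04 in WT) and Plin1, but Fabp4 was not. The mean deposited level of these markers was 5.87 in Id cKO, 6.91 on Id control 2, 5.82 on Id control 1 and 5.93 in WT. All 4 endocardial markers were highest there (mean 6.38 in Id cKO, 7.06, 6.18 on Id control 1, 6.31 in WT), as were 5 of 6 fibroblast markers (9.22, 9.84, 9.04 and 8.57 on the same arrays), 4 of 6 smooth muscle markers (7.59, 8.36, 7.96 and 7.55) and 5 of 8 epicardial markers (6.27, 6.54, 6.03 and 6.29), none of these by 2-fold over all 3 other arrays. Against WT alone, Id control 2 was at least 2-fold higher for 3 of 6 fibroblast markers (Col1a1, Col1a2 and Lum), 3 of 6 smooth muscle markers (Acta2, Tagln and Cnn1) and 2 of 3 endocardial markers compared (Npr3 and Cdh11). Of all genes compared, 1.55% were. Col1a1, Col1a2 and Lum were also at least 2-fold higher in Id cKO than in WT, by 1.76, 1.29 and 1.29 on the log2 scale, as 2.2% of genes were. The part of these other markers in the atrial levels was not tested. Lung markers averaged 4.91 on Id control 2 and 5.04 in WT, with 1 of 7 highest there, and markers of the sinus node and conduction tissue 6.55 and 6.36, with 4 of 9 highest and 0 by 2-fold.

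Skeletal muscle also uses Myl1 and, in some species and fibres, Sln. Of 14 skeletal muscle markers, the fast myosin heavy chain genes Myh1, Myh2 and Myh4 were between 4.73 and 5.44 on the 4 arrays as deposited, under the limit of 6, and the list mean was 5.67 in Id cKO, 5.93 on Id control 2, 5.8 on Id control 1 and in WT. Casq1, the calsequestrin of skeletal muscle, was the marker at least 2-fold above the other 3 arrays on Id control 2 (6.93 in Id cKO, 8.83, 7.32 on Id control 1, 6.87 in WT). Between Id cKO and WT, 0 of 5 compared skeletal markers were 2-fold apart (median -0.08), while Myl1 was lower by 1.66.

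Other genes had a similar profile over the 6 arrays. Likeness was the Pearson correlation of a gene's quantile-normalized levels with the mean centred profile of the 8 genes, over 6 arrays and among 2745 genes with a level of 6 on some array and a 2-fold range. The 10 other genes most alike were Mybphl (r = 0.9948), the relaxin receptor gene Rxfp1 (0.9923), the zinc transporter gene Tmem163 (0.9923), the adenylate cyclase gene Adcy1 (0.9866), Pkhd1l1 (0.9809), Sbk2 (0.9735), the prostaglandin F receptor gene Ptgfr (0.9686), the carbonic anhydrase gene Car3 (0.9682), Cyp2e1 (0.9668) and Ccn3 (0.9654). Of the 8, each a part of that mean, Myl4 had 0.9931, Fgf12 0.9924, Myl7 0.9885, Sln 0.9865, Stard10 0.9032, Myl1 0.6792 and Dkk3 0.5832, with Bmp10 below the level limit. Fgf12, Myl7 and Sln pass that limit through Id control 2 alone, as do all of the 10 other genes but Ccn3. Nothing is read from the values of these genes. These values rest on Id control 2: over the other 5 arrays Mybphl had 0.28, Rxfp1 0.33, Myl4 0.21 and Myl7 -0.08, while Stard10 had 0.87 and Myl1 0.76.

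By size of the excess on Id control 2 over the highest other array, Car3 (4.05), Mybphl (4.00), Sbk3 (3.71), Cyp2e1 (3.29), Rxfp1 (2.54), Tmem163 (2.25), Adipoq (2.20), Ptgfr (2.01), Sbk2 (1.98) and Pkhd1l1 (1.51) led the other genes on the quantile-normalized log2 scale. Myl7 (6.34) and Myl4 (6.01) exceeded all of these, and Fgf12 (3.20), Sln (2.05) and Stard10 (1.70) fell among them. Each of the other genes named in this ranking passes the limit of 6 through Id control 2 alone, so the ranking is a description.

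**Figure D4:**
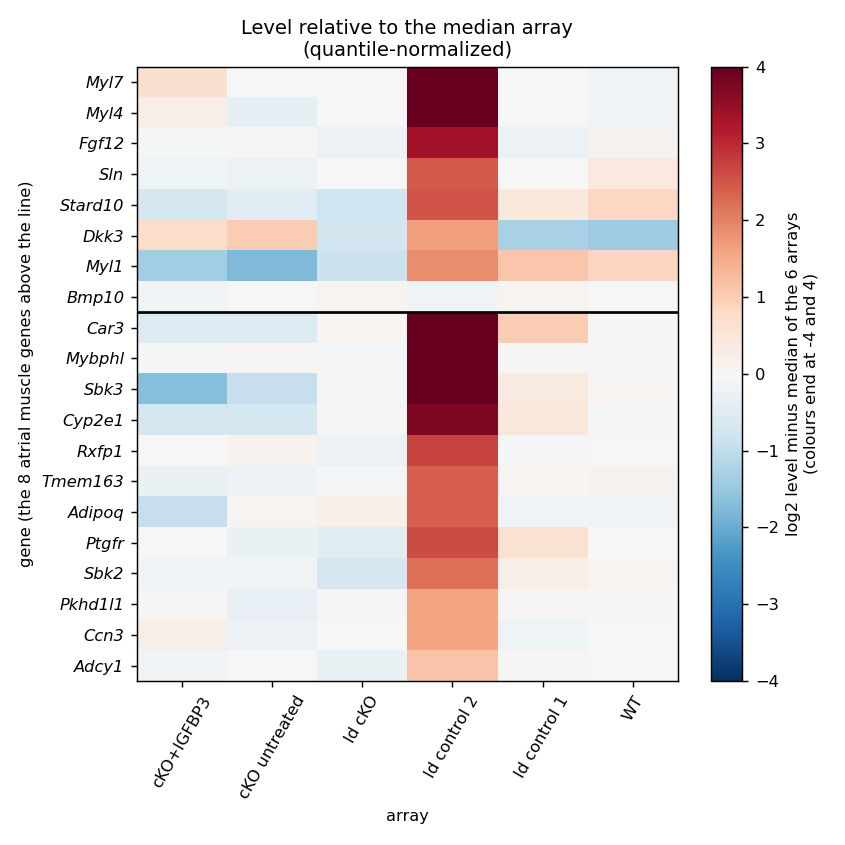
Quantile-normalized log2 level minus the gene's median over the 6 arrays, in colour, for the 8 atrial muscle genes (above the line) and the 12 other genes that were most alike or had the largest excess on Id control 2. The column of Id control 2 is red for all genes but Bmp10, while Myl1 and Stard10 are also blue on the 3 Id cKO arrays and Dkk3 is red on the treated and untreated arrays.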

How the data were processed

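Each of 6 hearts was measured on 1 array, and 300 ng of total RNA was labelled, per the labels' protocols. The deposited values are log2 expression levels that the authors made with Affymetrix Expression Console and RMA, per the submitters' processing notes (versions not given in the sources used here). RMA corrects background, aligns the arrays and summarises the probes of a set, and the array medians show that the incubated pair was not aligned with the other 4. Of 35557 probe sets, 21789 carried 1 gene symbol in the platform annotation, 1621 several and 12147 none. Only the first kind was used. The probe set with the highest mean stood for a gene, leaving 19938 genes, of which 19856 matched RefSeq of GRCm38.p6 by Entrez identifier.

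Differences are first-named minus second-named group. Genes were compared where the higher group reached 6 (log2) and counted at 2-fold or more. Quantile normalization and tests used limma 3.58.1 under R 4.3.3, tested on simulated data. With 1 array in a group, limma assumes that it varies like the Id control pair. The titles give the Id control arrays different genotypes, so p-values rest on the spread between these samples, 1 heart of each genotype, and not on repeats of a condition. The members and lists were chosen with earlier results of these data known. Genes named are the 8 members, all of the other atrial and ventricular lists, the 10 most alike, the 10 with the largest excess on Id control 2, and members of other lists that were defining or 2-fold apart. Alternatives were scaling, the floor, the fold limit, the probe set rule, limma settings and leaving out a replicate. The number of arrays limits the precision.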

Additional observations from a re-analysis of the deposited data

How the results depend on the processing

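Under quantile normalization or median centring, 72 of 72 recomputed differences of the 8 genes moved by less than 0.098, the median over genes of the SD of the Id control pair on the log2 scale. The floor, the fold limit and the probe set rule cannot move them, since each gene has 1 probe set. Leaving out an Id control replicate moved 32 of 32 by more. Leaving out an Id control replicate gave 2 to 7 genes at least 2-fold apart between Id cKO and Id control and 0 to 7 between Id control and WT, and 7 signs turned without Id control replicate 2. They were those of Myl7 (-6.9 without replicate 1, 0.07 without replicate 2), Fgf12 (-3.56 and 0.04) and Dkk3 (-2.46 and 0.58) between Id cKO and Id control, and of Fgf12 (3.13 and -0.47), Sln (1.95 and -0.44), Stard10 (1.78 and -0.32) and Bmp10 (-0.24 and 0.09) between Id control and WT. Between Id cKO and WT, 1 gene in place of 2 was 2-fold apart with median centring or a floor of 8, and 1 in place of 2 between Id cKO and Id control 1 with that floor, since fewer of the genes were then compared. The fit without Id control replicate 2, chosen after seeing the data, called 1 of 4 genes (Myl1) in both limma comparisons it could be run on, where limma over all arrays called 0. Leaving out an Id control array from the limma fit with 5 groups leaves no residual degree of freedom. No paired analysis was possible because the labels number no replicates.

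Over all genes, limma between Id cKO and Id control called 2, and 58 at an unadjusted p of 0.001 with 2-fold, 1 with Id cKO and untreated as a group, and 59 without Id control replicate 2. Between Id cKO and WT it called 4, and 14 with a floor of 8, 74, 0 and 65 under those settings. Between Id control and WT it called 0, with 1 without a floor and 13 at 0.001, and 9 at 0.001 between treated and untreated, where the main count was 0. The 2-fold counts (higher, lower) were 161 and 62 with a floor of 8, and 797 and 384 at 1.5-fold, for Id cKO against WT (253 and 111), 102 and 65, and 527 and 503, for Id cKO against Id control 1 (173 and 113), and 226 and 135 at 1.5-fold for Id control 1 against WT (24 and 33, with 20 lower at a floor of 8). For treated against untreated (37 and 60) they were 6 and 33 with a floor of 8, 87 and 91 without a floor, 572 and 504 at 1.5-fold, and 80 higher with median centring. Across the sets (509 and 352) they were 1426 and 1423 at 1.5-fold. Without Id control replicate 1, 172 genes were lower in Id cKO than in Id control (109). Against WT, Id control had 177 higher and 26 lower without replicate 1 and 24 and 33 without replicate 2 (61 and 14). Median centring moved the median of all genes between Id control 1 and WT to 0.16, against 0.06 as deposited. As deposited, a level of 6 lies near the array medians outside the incubated pair, which were 5.73 to 5.83. It lies well above the medians of the treated and untreated arrays, 4.45 and 4.51, so the floor is stricter there. Levels of Bmp10, of Myl7, Sln and Fgf12 outside Id control 2, and of Myl1 on the 3 Id cKO arrays, were under 6. Their differences are poorly determined.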
